A study of Homo sapiens with 2 samples.

Results

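The 9 genes described here encode the enzymes and helpers that write and erase DNA methylation: the methyltransferases DNMT1, DNMT3A and DNMT3B, the cofactor DNMT3L, the DNMT1 helper UHRF1, the dioxygenases TET1, TET2 and TET3, and the DNA glycosylase TDG. They were taken by NCBI gene number from the 18518 gene numbers listed in the data. RNA was sequenced from 2 libraries at day 3 of differentiation towards blood. One came from cells labelled MEIS1-/- and one from cells labelled Wild Type, both of the H1 line, which is an established line of human embryonic stem cells. MEIS1 encodes a homeodomain transcription factor that works with HOX and PBX proteins. Per the labels, both were first kept for 2 days with activin A (40 ng/ml) and BMP4 (50 ng/ml) and next for 2 days with VEGF (40 ng/ml) and bFGF (50 ng/ml), and day 3 falls within the second step. The labels did not give the number of clones or cultures, or the part of MEIS1 that was deleted.

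Methyl groups on cytosine in CpG pairs help to keep genes silent. DNMT3A and DNMT3B place them on unmethylated DNA and DNMT3L, which has no catalytic activity of its own, stimulates both. DNMT1 copies the pattern to the new strand after replication, and UHRF1 brings it there by binding DNA that is methylated on the old strand. TET enzymes oxidise methylcytosine, and TDG removes the most oxidised forms so that base excision repair can put back a plain cytosine. Human embryonic stem cells are known for high DNMT3B and TET1, which decline as cells leave the stem state.

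The library labelled deleted held 5296397 counts after rounding and the wild-type library 5202847, with medians of 86 and 89 counts per listed gene. MEIS1 had 68 counts in the library labelled deleted and 89 in the wild-type library, 0.759 of the wild-type level with a 95% interval of 0.543 to 1.05, so its level does not check the labels, and the library is called the one labelled deleted throughout. With 1 library per genotype there was no test between genotypes and no replicate check. Differences are between these 2 libraries, and intervals cover counting error only. In these bulk samples, fewer cells of a type and less RNA per cell cannot be told apart. Of 12 early mesoderm markers 9 had enough counts to compare, as did 12 of 13 endothelial and 6 of 12 blood markers, with HBZ, HBG1 and GP9 at 0 in both libraries. The libraries were not alike in these markers, whose values are given after those of the members.

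DNMT3B and TET1, the members best known from the stem cell state, were lower in the library labelled deleted. UHRF1 was slightly higher, and the other measured members had intervals that included 1. UHRF1 (1.003 to 1.28) and TET3 (0.766 to 1.0001) were both borderline, and the call of each changed with the scaling. None of the 8 members with enough counts for a ratio reached 1.5-fold. Of the 8 members with at least 10 counts in 1 library, 1 had a counting interval above a ratio of 1, where 15.4% of the 14381 genes compared did, 2 had an interval below it, where 14.7% did, and 5 had an interval that included it. At 1.5-fold the counts were 0 higher and 0 lower among members, against 5.75% and 6.21% of all genes, and at 2-fold 0 and 0, against 2.9% and 2.95%. The median log2 ratio of the 8 members was -0.08, and that of all genes compared was 0.0032. With 8 members, 1 above and 2 below are near these shares, so the counts are no result about the members as a group.

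UHRF1 and DNMT1 were the only members with a ratio above 1, though the interval of DNMT1 included 1. TET1 was one of those below 1. The upstream sequences of UHRF1, DNMT1 and TET1 were picked by these ratios and are shown here. Each runs from 250 bases before a listed transcript start to 30 bases after it, 5′ to 3′, from RefSeq on GRCh38.p14, and capitals mark motifs of E2F, a transcription factor family that acts on S phase genes. The motifs and windows were chosen after the values were seen, so which members hold a match is no test of a cause. Both UHRF1 windows with an E2F motif and the first TET1 window are shown, while 1 more UHRF1 window and 2 more TET1 windows, all without an E2F motif, are not.
UHRF1, chr19:4909251-4909530, plus strand: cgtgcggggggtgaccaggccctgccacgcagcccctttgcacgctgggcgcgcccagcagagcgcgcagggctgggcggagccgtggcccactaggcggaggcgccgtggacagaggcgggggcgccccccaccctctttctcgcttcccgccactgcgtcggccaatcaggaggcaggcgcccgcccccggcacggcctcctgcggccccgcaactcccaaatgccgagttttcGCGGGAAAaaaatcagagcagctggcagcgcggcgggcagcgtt
UHRF1, chr19:4909894-4910173, plus strand: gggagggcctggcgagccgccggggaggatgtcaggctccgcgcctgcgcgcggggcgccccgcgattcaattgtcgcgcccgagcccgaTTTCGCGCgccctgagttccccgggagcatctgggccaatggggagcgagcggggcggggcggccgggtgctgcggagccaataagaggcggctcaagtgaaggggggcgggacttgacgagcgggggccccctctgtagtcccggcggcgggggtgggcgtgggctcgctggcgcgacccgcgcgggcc
DNMT1, chr19:10194924-10195203, minus strand: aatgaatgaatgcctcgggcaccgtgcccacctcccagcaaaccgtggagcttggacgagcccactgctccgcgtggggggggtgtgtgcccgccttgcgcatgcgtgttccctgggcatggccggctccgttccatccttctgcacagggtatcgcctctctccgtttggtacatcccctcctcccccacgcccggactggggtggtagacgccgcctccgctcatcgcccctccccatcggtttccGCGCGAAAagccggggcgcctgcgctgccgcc
TET1, chr10:68560087-68560366, plus strand: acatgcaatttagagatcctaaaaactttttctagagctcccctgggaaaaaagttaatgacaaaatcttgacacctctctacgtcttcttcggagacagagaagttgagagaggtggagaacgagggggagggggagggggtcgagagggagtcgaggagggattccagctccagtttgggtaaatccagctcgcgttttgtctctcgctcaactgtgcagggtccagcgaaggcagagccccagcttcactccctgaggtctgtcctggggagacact
The motifs searched on both strands were TTTCCCGC, TTTCGCGC and TTTGGCGC for E2F, TGACAG for MEIS proteins and TGATTGAC for a complex of HOX with a TALE partner. TGATTGAC ends with the letters that begin TGACAG, so these can overlap, and so can E2F matches on opposite strands. The search covered 300 bases, from 250 before to 50 after each start. RefSeq windows were found for 8 of the 9 members, 19 windows in all, and DNMT3L was not matched. An E2F motif was in 3 windows of 2 members, UHRF1 and DNMT1, and in 2.74% of all 35116 windows of that length. In UHRF1 it lay at bases -14 to -7 of one start and -160 to -153 of another, and in DNMT1 at -2 to 6, counted with the start as base 1 and no base 0. Each E2F motif searched holds a CpG pair. The windows with a match held 36 and 40 CpG pairs in UHRF1 and 30 in DNMT1, against a median of 14 over all windows. The other member windows held 3 to 46. The 2.74% is thus not a share among windows of like CpG content. The MEIS letters TGACAG were in 0 of the 19 member windows and in 15.8% of all windows, and TGATTGAC in 0 and 0.575%. These are likewise not shares among windows of like CpG content. Some windows of the same gene overlapped, so the 19 were not independent. The only DNMT3B window listed lay 17467 bases inside the gene from its first start and is not shown. Both UHRF1 windows shown also lay inside the gene, 6421 and 7064 bases from its first start. Those shown for DNMT1 and TET1 lay at the first start. These matches describe letters and say nothing of binding.

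**Figure D1:**
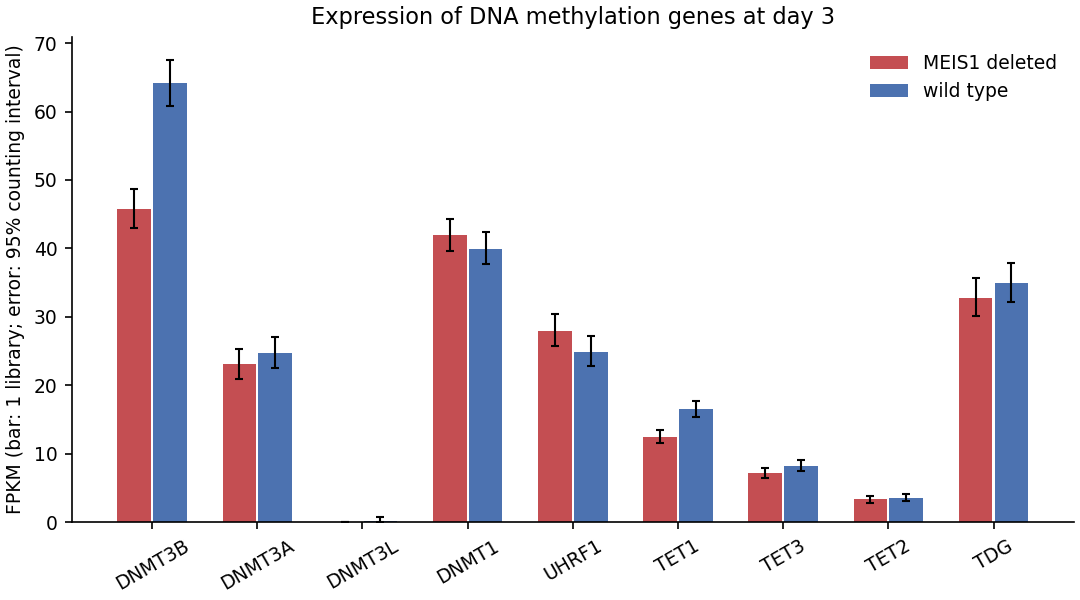
Expression in FPKM (fragments scaled for gene length and library depth) of the 9 genes, with the library labelled MEIS1 deleted in red and wild type in blue. Each bar is 1 library and each error bar the 95% counting interval; DNMT3B at 45.7 and TET1 at 12.5 FPKM in the library labelled deleted stand below 64.1 and 16.5 in wild type, and DNMT3L is near 0 in both.

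Among the de novo enzymes, DNMT3B had 1014 counts in the library labelled deleted and 1408 in the wild-type library, or 45.7 FPKM (43.0 to 48.6) and 64.1 FPKM (60.8 to 67.6). It was 1.40-fold lower in the library labelled deleted (1.29 to 1.52), a log2 ratio of -0.49 (-0.61 to -0.37). Of all genes compared 11.5% had a lower ratio, and of the 922 genes with a mean count within 1.5-fold of that of DNMT3B 3.47% did. DNMT3B was the most abundant member per length in both libraries, above 91.6% of listed genes in the library labelled deleted and 94.4% in wild type.

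DNMT3A, the other de novo enzyme, had 448 counts in the library labelled deleted and 468 in wild type, or 23.0 FPKM (20.9 to 25.3) and 24.7 FPKM (22.5 to 27.0). Its ratio was 0.947 of wild type (0.830 to 1.08), so the interval included no difference. DNMT3B against DNMT3A within each library needs no scaling between libraries. DNMT3B made up 69.4% of their joint counts in the library labelled deleted (exact binomial 95% interval 66.9 to 71.7) and 75.1% in wild type (73.0 to 77.0). The 2 intervals did not overlap, and by FPKM its shares were 66.5% and 72.2%. DNMT3A relative to DNMT3B was 1.33-fold higher in the library labelled deleted (exact interval 1.14 to 1.55).

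DNMT3L had 0 counts in the library labelled deleted and 2 in wild type, listed there at 0.22 FPKM. Both lie within the 3 counts that a count of 0 allows, so no ratio is given and a difference was not detectable at this depth. In GENCODE the gene AP001059.1 overlaps DNMT3L exons on the other strand, and reads of the pair cannot be told apart where strand was not kept. No such overlap was found for the other 8 members.

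For maintenance, DNMT1 had 1204 counts in the library labelled deleted and 1127 in wild type, or 41.9 FPKM (39.6 to 44.4) and 40.0 FPKM (37.7 to 42.4). Its ratio of 1.06 had an interval of 0.974 to 1.15, which included no difference. UHRF1 had 584 counts in the library labelled deleted and 511 in wild type, or 27.99 FPKM (25.8 to 30.4) and 24.9 FPKM (22.8 to 27.2). It was 1.13-fold higher (1.003 to 1.28), with a log2 ratio of 0.18, and 28.8% of all genes and 21.0% of 2155 genes of like count had a higher ratio. With the libraries scaled by total counts its interval was 0.995 to 1.27 and included 1. DNMT1 relative to UHRF1 was 1.498 by FPKM in the library labelled deleted and 1.60 in wild type, with a ratio of the 2 of 0.935 (0.807 to 1.08), an interval that included no difference.

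**Figure D2:**
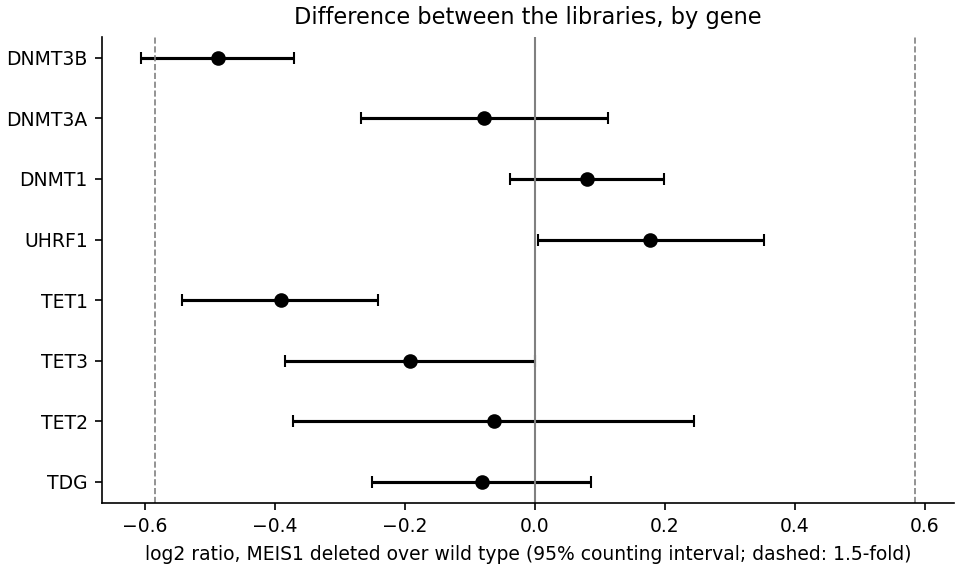
Log2 ratio of the library labelled MEIS1 deleted over wild type (horizontal axis) for the 8 members with at least 10 counts; points are the ratios from counts and lines the 95% counting intervals. DNMT3B (-0.49) and TET1 (-0.39) lie left of 0 with their intervals, UHRF1 (0.18) just right of it, and every point lies within the dashed 1.5-fold lines.

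Among the erasers, TET1, the main TET gene of stem cells, had 640 counts in the library labelled deleted and 831 in wild type, or 12.5 FPKM (11.5 to 13.5) and 16.5 FPKM (15.4 to 17.6). It was 1.31-fold lower in the library labelled deleted (1.18 to 1.46), with a log2 ratio of -0.39 (-0.54 to -0.24), and 15.1% of all genes and 6.04% of 1640 genes of like count had a lower ratio. TET3, which in mouse acts on the paternal genome of the zygote, had 421 counts in the library labelled deleted and 476 in wild type, or 7.16 FPKM (6.49 to 7.88) and 8.25 FPKM (7.53 to 9.03). Its ratio was 0.876 (0.766 to 1.0001), which included 1 by the narrowest margin, and the upper limit was 0.993 with total counts. TET2, often mutated in blood cancers, had 174 counts in the library labelled deleted and 180 in wild type, or 3.33 FPKM (2.85 to 3.86) and 3.52 FPKM (3.02 to 4.07), with a ratio of 0.957 (0.772 to 1.18). TDG had 566 counts in the library labelled deleted and 593 in wild type, or 32.8 FPKM (30.1 to 35.6) and 34.98 FPKM (32.2 to 37.9), with a ratio of 0.945 (0.840 to 1.06). For TET2 and TDG the interval included no difference.

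The summed methyltransferases and the summed TET genes were both lower in the library labelled deleted. Among these genes only DNMT3B and TET1 had an interval below 1. The 3 TET genes summed to 22.95 FPKM in the library labelled deleted and 28.25 FPKM in wild type, and TET1 held 54.3% and 58.3% of these sums. By counts its shares were 51.8% (49.0 to 54.6) and 55.9% (53.3 to 58.4), and the intervals overlapped. TET1 relative to TET2 (0.797, 0.627 to 1.01) and to TET3 (0.871, 0.734 to 1.03) had intervals that included no difference. The 3 methyltransferases summed to 110.7 FPKM and 128.7 FPKM. Of these, DNMT3B had 45.74 FPKM in the library labelled deleted and 64.12 in wild type. DNMT1 had 41.93 and 39.95 and DNMT3A 23.03 and 24.67, so the lower sum was not shared by all 3. In summed counts the methyltransferases stood at 0.879 of wild type (0.834 to 0.926) and the TET genes at 0.822 (0.762 to 0.887). The ratio of methyltransferase to TET FPKM was 4.82 in the library labelled deleted and 4.56 in wild type, and in counts that ratio differed 1.07-fold (0.974 to 1.17), an interval that included no difference. DNMT3B relative to TET1 likewise was 3.67 by FPKM in the library labelled deleted and 3.89 in wild type, with a ratio of the 2 of 0.935 (0.819 to 1.07).

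**Figure D3:**
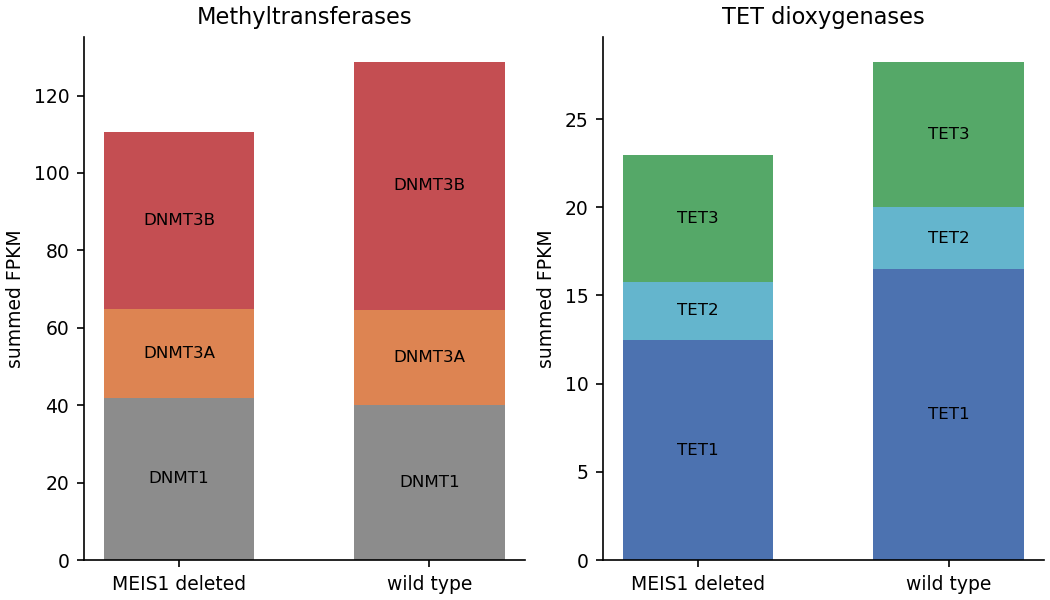
Summed FPKM of the 3 methyltransferase genes (left) and the 3 TET genes (right), stacked by gene, in the library labelled MEIS1 deleted and in wild type. The sums are 110.7 and 128.7 FPKM on the left and 22.95 and 28.25 on the right, and the DNMT3B and TET1 segments are the ones that are visibly shorter in the library labelled deleted.

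All pairs of measured members were compared in this way. Of 28 pairs, 13 had an exact interval that excluded 1. With a normal interval it was 14, or 50.0%, and 37.4% of all pairs did among the 5241 genes with 174 to 1408 counts in both libraries, the range of the measured members, so the count itself is no result about the members. By the exact interval DNMT3B took part in 6 and TET1 in 4, each out of 7 pairs. UHRF1 took part in as many as TET1, with DNMT3B, TET1, TET3 and TDG, and the other members in fewer. The 3 pairs without DNMT3B or TET1 were DNMT1 with TET3, UHRF1 with TET3 and UHRF1 with TDG. The widest change was DNMT3B relative to UHRF1, which was 1.63 by FPKM in the library labelled deleted and 2.58 in wild type, 1.59-fold lower in counts (1.37 to 1.84). TET1 relative to UHRF1 was 0.445 by FPKM in the library labelled deleted and 0.662 in wild type, 1.48-fold lower in counts (1.26 to 1.74). Pairs share genes and are not independent.

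By FPKM the order was the same in both libraries: DNMT3B, DNMT1, TDG, UHRF1, DNMT3A, TET1, TET3, TET2 and DNMT3L. In the library labelled deleted DNMT3B and DNMT1 overlapped, with 1.09 times as much DNMT3B, and so did TDG and UHRF1. In wild type DNMT3B lay apart from DNMT1, with 1.61 times as much, while DNMT1 overlapped TDG, and UHRF1 overlapped DNMT3A. Compared directly, the proportion of DNMT3B and DNMT1 differed between the libraries, with DNMT1 relative to DNMT3B 1.48-fold higher in the library labelled deleted (1.32 to 1.67), and so did that of UHRF1 and TDG, with UHRF1 relative to TDG 1.197-fold higher (1.01 to 1.42). For DNMT1 relative to TDG (1.12, 0.970 to 1.29) and DNMT3A relative to UHRF1 (0.838, 0.700 to 1.002) the interval included no difference.

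**Figure D4:**
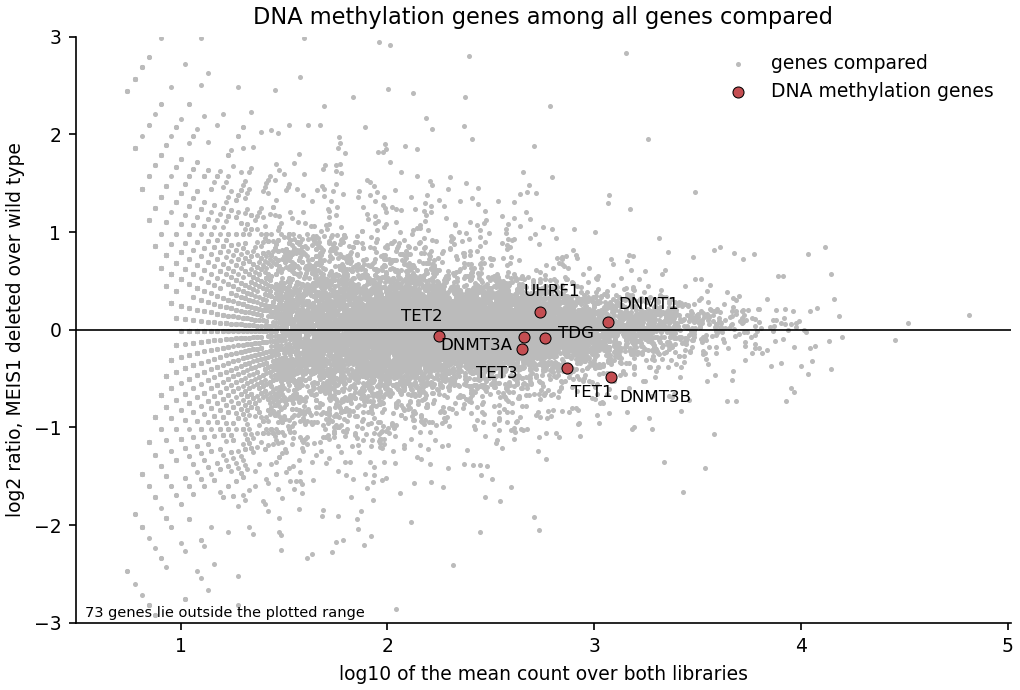
Each grey point is 1 of the 14381 genes compared, with the log10 of its mean count on the horizontal axis and its log2 ratio of the library labelled MEIS1 deleted over wild type on the vertical axis; red points are the 8 measured members. Among genes of like count, 3.47% have a lower ratio than DNMT3B and 6.04% than TET1, and for the other members the share with a lower ratio lies between 18.9% and 79.0%; 73 genes lie beyond the plotted limit of 3.

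The deposited gene length is weighted over a gene's transcripts, so a difference between libraries describes a different mix of them. DNMT3B, with 6 transcripts listed, averaged 4166 bases in the library labelled deleted and 4201 bases in wild type, a difference of -0.829%. DNMT3A, with 4 transcripts, moved the other way, with 3660.0 and 3634 bases, a difference of 0.724%. DNMT3A is known to have a shorter form, DNMT3A2, made from an internal start and abundant in embryonic stem cells. TET2 averaged 9768 bases in the library labelled deleted and 9734 in wild type, UHRF1 3922 and 3928, and DNMT1 5385 and 5386. Set beside other genes these shifts were not large: of 4776 genes with several transcripts and at least 50 counts in both libraries, 37.8% moved by more than DNMT3B did and 40.4% by more than DNMT3A, and the median shift was 0.446% in either direction. TET1, TET3 and TDG had 1 transcript listed.

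Partner genes were taken from 6 lists, in which 66 of 86 symbols had enough counts. Of these, 6 were higher by the counting interval, 12 lower and 48 had an interval that included 1, beside 15.4% higher and 14.7% lower over all genes. At 1.5-fold 3 were higher and 1 lower, beside 5.75% and 6.21% over all genes. The interval counts of each list below stand beside the same 15.4% and 14.7%, and the median log2 ratios beside 0.0032 over all genes.

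In the list of maintenance and targeting partners 1 of 17 measured genes was higher, 2 were lower and 14 included 1, with a median log2 ratio of -0.07, and 2 of the 19 symbols, ZFP57 and DPPA3, were below the minimum. CDCA7, the partner of the remodelling enzyme HELLS, had 385 counts in the library labelled deleted and 456 in wild type and was 1.20-fold lower (1.04 to 1.37). Its relative CDCA7L had 542 counts in the library labelled deleted and 327 in wild type. It was 1.64-fold higher (1.43 to 1.89), on deposited counts that were not whole, as when reads are shared between genes. The third was SETD2, which writes the histone mark that DNMT3 enzymes read, at 1.13-fold lower (1.03 to 1.25), named after its value was seen. TRIM28, a corepressor and the most abundant of the list, had 162 FPKM in the library labelled deleted and 172 in wild type (0.951 of wild type, 0.901 to 1.005). SETDB1, a histone methyltransferase that works with TRIM28, was at 0.882 (0.747 to 1.04) and KDM1B, a histone demethylase, at 1.27 (0.885 to 1.84).

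In a list of 8 genes of methyl-CpG readers and their relatives, 0 were higher and 1 was lower, while 7 included 1, and the median was -0.03. ZBTB4, a zinc finger reader, was 1.19-fold lower (1.01 to 1.40). MBD4, a reader that is also a glycosylase, had a ratio of 1.15 (0.971 to 1.36), MBD3, a subunit of the NuRD complex, 0.935 (0.804 to 1.09) and MBD2 0.820 (0.613 to 1.09). MBD2 had 91 counts in the library labelled deleted and 110 in wild type, yet 6.98 and 12.4 FPKM, so its level depended on the scale.

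Of the 14 base excision repair and GADD45 genes, 1 was higher and 1 was lower, while 12 included 1, and the median was 0.03. The glycosylase gene NTHL1 was 1.69-fold higher (1.09 to 2.71) on 57 counts in the library labelled deleted and 33 in wild type. APEX1, which cuts the strand where a base was removed and was the most abundant of the list, had 121 FPKM in the library labelled deleted and 136 in wild type and was 1.11-fold lower (1.01 to 1.21). The glycosylases UNG, NEIL2 and NEIL3 had ratios of 0.881 (0.748 to 1.04), 1.36 (0.878 to 2.17) and 0.845 (0.592 to 1.19).

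TET partners and enzymes of 2-oxoglutarate, the co-substrate of TET enzymes, numbered 13, of which 5 were lower and 1 was higher, while 7 included 1. The median was -0.08. IDH1, which makes 2-oxoglutarate in the cytosol, had 2209 counts in the library labelled deleted and 2785 in wild type and was 1.27-fold lower (1.20 to 1.35). IDH2, its mitochondrial counterpart, had 468 counts in the library labelled deleted and 292 in wild type and was 1.58-fold higher (1.37 to 1.84). CXXC5, a CpG-binding protein that can bind TET2, was 1.43-fold lower (1.17 to 1.74). QSER1, which with TET1 keeps DNMT3 enzymes off certain promoters in human embryonic stem cells, was 1.23-fold lower (1.14 to 1.32), on counts not whole. HCFC1 and SIN3A, which bind the TET partner OGT or TET1, were 1.21-fold (1.12 to 1.31) and 1.20-fold lower (1.07 to 1.35), and were named after their values were seen; SIN3A counts were not whole.

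S-adenosylmethionine is the methyl donor of the methyltransferases. In its cycle and the folate cycle 3 of 12 measured genes were higher, 2 lower and 7 included 1, with a median of 0.06, and MAT1A, GNMT and BHMT were below the minimum. ADK, which clears the adenosine the cycle makes, was 1.33-fold higher (1.07 to 1.65) and MAT2B, a subunit of the enzyme that makes the donor, 1.22-fold higher (1.01 to 1.48). SHMT1, of the folate cycle, was 1.32-fold lower (1.07 to 1.63). AHCY, the most abundant of the list, had a ratio of 1.02 (0.939 to 1.11). MTHFD1 was 1.15-fold higher (1.03 to 1.28) and CBS 1.12-fold lower (1.04 to 1.22), both named after their values were seen.

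Germline genes that promoter methylation is known to hold silent, many of them from work in mouse, were almost all near 0. Of 17 symbols, 6 were listed in neither library, 9 were below the minimum with at most 5 counts, and 2 were measured, of which 1 was lower and 1 included 1. The measured genes were PIWIL2, with 60 counts in the library labelled deleted and 75 in wild type and a ratio of 0.794 (0.554 to 1.13), and BRDT, with 12 counts in the library labelled deleted and 48 in wild type, 3.81-fold lower (2.11 to 8.36), named after its values were seen. Both had counts that were not whole.

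**Figure D5:**
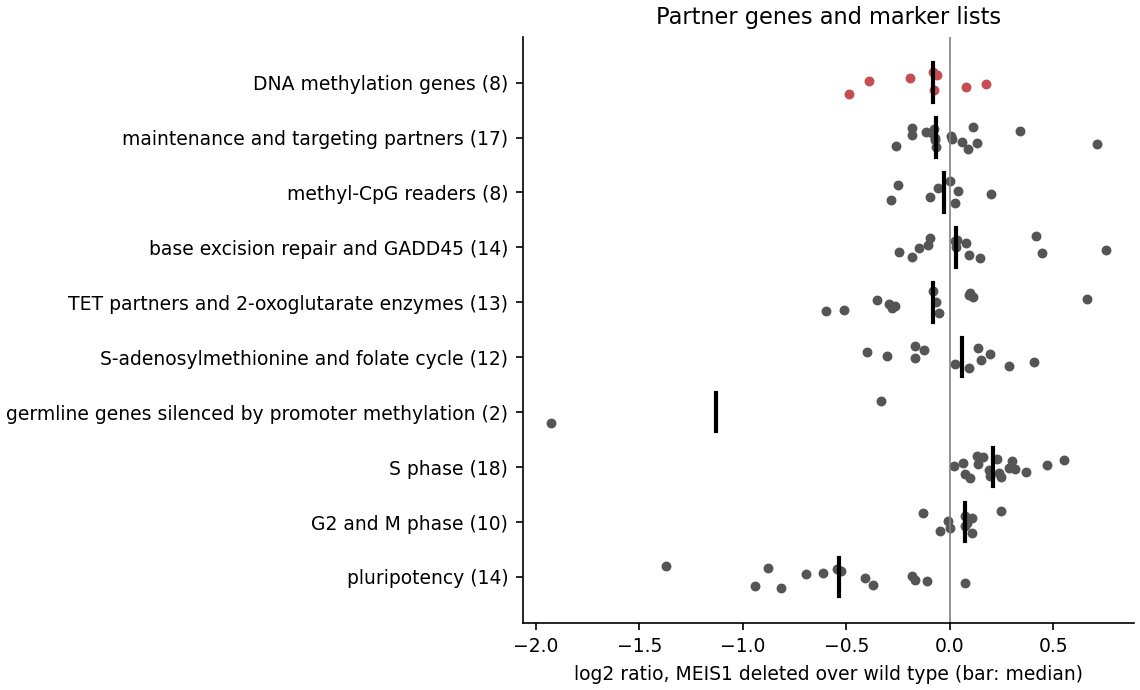
Log2 ratio of the library labelled MEIS1 deleted over wild type for each measured gene (points) of the 9 DNA methylation genes, the 6 partner lists and 3 marker lists, with the number measured in brackets and the list median as a black bar. Medians of the DNA methylation genes (-0.08) and of 5 partner lists lie close to 0, S phase genes lie to the right (0.21) and pluripotency genes to the left (-0.54).

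Many marker lists differed between the libraries, several of them by more than the members did. Of the 14 measured pluripotency genes 11 were lower in the library labelled deleted, 0 higher and 3 included 1. Their median log2 ratio was -0.54, beside -0.49 for DNMT3B and -0.39 for TET1, and their summed level was 788 FPKM in the library labelled deleted and 1038 FPKM in wild type. FOXD3 was at 0 in both, SOX2 and UTF1 were below the minimum, and VRTN and NANOG were lowest, with log2 ratios of -1.37 and -0.94. Counts of VRTN, NANOG and most other measured genes of this list were not whole. Early mesoderm markers differed more, with 7 lower and 2 higher of 9 measured and a median of -1.51. EOMES, a transcription factor of the primitive streak, had 211 counts in the library labelled deleted and 867 in wild type, 4.14-fold lower (3.57 to 4.85), and LHX1, another, was 3.77-fold lower (3.25 to 4.41). The summed level of these markers was 539 FPKM in the library labelled deleted and 664 FPKM in wild type.

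Endothelial markers were higher for 11 of 12 measured, with a median of 0.90, summed levels of 613 FPKM in the library labelled deleted and 376 FPKM in wild type and none at 0. PLVAP, of vessel walls, was 6.99-fold higher (5.41 to 9.43) and the adhesion gene PECAM1, on counts not whole, 5.35-fold higher (3.90 to 7.81). Blood markers were higher for 4 of 6 measured and lower for 0, with a median of 1.20. Fibroblast and smooth muscle markers were higher for 5 and lower for 1 of 7, with a median of 0.77, and COL3A1, a fibrillar collagen, stood 7.13-fold higher (6.38 to 8.02). Endoderm markers were higher for 1 and lower for 3 of 8, with a median of -0.32, and neural markers lower for 1 and higher for 0 of 3. The part of cell composition in the DNMT3B and TET1 differences was not tested.

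Of 18 S phase genes 9 were higher in the library labelled deleted, 0 lower and 9 included 1. Their median log2 ratio was 0.21, beside 0.18 for UHRF1 and 0.08 for DNMT1, both of which are expressed most during replication, and their summed level was 649.9 FPKM in the library labelled deleted and 566 FPKM in wild type, with none at 0. E2F1, which encodes an activator of S phase genes, had 177 counts in the library labelled deleted and 119 in wild type, a log2 ratio of 0.55, and CDC45, a subunit of the replicative helicase, 160 in the library labelled deleted and 114 in wild type, a log2 ratio of 0.47. Genes of G2 and M phase had a median of 0.08, and of 10 measured 2 were higher, 0 lower, while 8 included 1. The part of cell cycle in the UHRF1 difference was not tested.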

How the data were processed

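RNA was sequenced in 2 libraries, 1 labelled MEIS1-/- and 1 labelled Wild Type, prepared with a TruSeq kit (Illumina; 2 µg total RNA) per the labels' protocols, which do not say whether strand was kept. The authors deposited expected counts, which are estimated and need not be whole, without scaling, and FPKM values scaled for gene length and depth, per the file headers. The submitters' processing notes name BWA, Bowtie, RSEM and hg19 without versions, and the series' design text names BWA with ANOVA and TopHat with Cufflinks. The other deposited value, gene length in bases, is per the file headers. A gene absent from 1 table was taken as 0 there (822 in the library labelled deleted, 956 in wild type). Counts were rounded, and all member counts were whole within 0.005 as deposited. Gene numbers were matched to symbols through RefSeq of GRCh38.p14, 18413 of 18518, and all 192 list symbols matched.

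Libraries were scaled by TMM over all genes (edgeR 4.0.16, R 4.3.3), a factor of 1.01. Log2 ratios used a pseudocount of 1, and intervals are exact Clopper-Pearson 95% intervals conditional on the sum of both counts; FPKM intervals are exact Poisson intervals, and those of proportions between genes are exact conditional intervals of the odds ratio (SciPy 1.17.1). Reads copied by PCR are not independent, so intervals and the floor of 3 counts cover counting error only. Genes with at least 10 counts in 1 library were compared. No model was fitted and no p-value computed. The calculation was tested on simulated data. Named were the 9 members and, per partner list, up to 4 genes with the largest absolute ratio among genes reaching 50 counts in either library, plus the one highest in FPKM, and up to 2 such genes per marker list, of which part is given; 1 gene the rule names is not reported here. The motif search and the comparisons with genes of like count were added after values were seen. The members, lists and alternatives were chosen with earlier results of these data known. Alternatives were other scalings (DESeq2 1.42.0 among them), pseudocounts, minimum counts, unrounded counts and FPKM.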

Additional observations from a re-analysis of the deposited data

How the results depend on the processing

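No paired analysis was possible because each genotype had 1 library, and no library could be left out. The log2 ratios of the 8 measured members kept their sign and stayed within their counting interval in 56 of 56 values over 7 alternatives, with DNMT3B between -0.499 and -0.473 and TET1 between -0.402 and -0.376. The scaling factors ran only from 1 to 1.02, so other scalings could move the ratios little and are a weak check. The number of members with an interval above 1 was 0 with total counts in place of 1, which concerned UHRF1, and the number with an interval below 1 was 3 in place of 2 with total counts, upper quartile scaling or unrounded counts, which concerned TET3. Members at 1.5-fold remained 0 in each direction, from FPKM too. The median of the germline list, -1.13, was -0.33 with a minimum of 1 count or of 50 counts, since more genes (minimum of 1) or only PIWIL2 (minimum of 50) then counted. With a minimum of 10 counts, 41.3% of genes shifted in length by more than DNMT3B, 43.6% by more than DNMT3A and 77.9% by more than DNMT1, against 37.8%, 40.4% and 81.4%, since other genes were then compared. At this depth the interval of TET2 allowed a level between 0.772 and 1.18 of wild type, so smaller differences were not detectable.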
